A study of Mus musculus with 36 samples.

Results

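Lungs of mice given large graphene oxide sheets were compared with lungs of mice given ultrasmall sheets 28 days after a single instillation into the nose. The comparison holds 6 of the 36 libraries of the series, chosen by their titles: 3 of large sheets at day 28 (called L here) and 3 of ultrasmall sheets at day 28 (US). It covers the 16903 genes of 46078 that passed a filter on low counts. L and US animals were wild type female C57BL/6 mice of 13 weeks, each given 50 μg of sheets dispersed in 5% dextrose. The accompanying day 28 groups were 3 libraries of small sheets (S) and 3 libraries of animals given the dextrose solution without sheets (D). S animals had the same dose, dispersant, strain, sex and age. D animals had 0 μg and were also of 13 weeks. L and US libraries of day 1 (mice of 9 weeks) and day 7 (mice of 10 weeks), with 3 per group and day and the same dose, enter where days are compared. The question posed was whether lungs react otherwise to wide sheets than to narrow ones. Small pieces of every lobe, with the large airways removed, gave poly(A) RNA for sequencing.

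Graphene oxide is a carbon sheet of atomic thickness that carries oxygen groups. Inhaled particles that reach the alveoli are taken up by macrophages, which break down or store the material in lysosomes, acid compartments that hold proteases and lipases. Macrophages loaded with lipid or poorly degradable material are known in several mouse tissues for high levels of Gpnmb, Trem2, Mmp12 and cathepsin genes. The circadian clock runs in lung cells as in most others: the activators Arntl, Clock and Npas2 drive the Per, Cry and Nr1d genes, whose products repress the activators, and pass the rhythm to outputs such as Dbp and Tef.

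The L libraries held 19188526, 17436926 and 16554469 counted reads and the US libraries 20945318, 23059090 and 23808264, so every L library was shallower than every US library. Of the other libraries of the series, 1 stood apart in depth (small sheets, day 7, replicate 2, with 80566751 reads). Alveolar type 2 markers summed to between 39566 and 43206 CPM (a gene's share of the counted reads of its library, scaled to 1000000 reads) in L and between 33355 and 42427 CPM in US, and type 1 markers to between 10587 and 12112 CPM in L and between 10814 and 11742 CPM in US, as lung tissue requires. Skeletal muscle genes summed to between 23.0 and 30.6 CPM in L and between 18.0 and 24.8 CPM in US. Cardiomyocyte genes summed to between 53.2 and 90.5 CPM in L and between 48.7 and 103.9 CPM in US. Within each group the counts of any pair of libraries differed by more than sampling noise, and all were kept as separate samples. The labels speak of 4 to 5 animals per group but tie no library to an animal. The p-values here therefore reflect only how far libraries of the same group lie apart, which may be technical. That spread was estimated over all 12 groups of the series and not from L and US alone.

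The promoter windows below are shown for 6 genes that passed the test and that hold a motif of the clock or of macrophage lysosomal genes in the 250 bases before their start. They come from RefSeq on GRCm38.p6 and run 5′ to 3′ on the gene's own strand. Capitals mark CACGTG, the E-box core to which clock activators and the lysosomal regulator Tfeb bind, TTATGTAA, the D-box core that Dbp and Tef bind, and AGGTCA or its reverse TGACCT, the core to which the Nr1d proteins bind. In the Ctsd window the first E-box overlaps a TGACCT, so these capitals form 1 run. The windows are Bhlhe41 at chr6:145865421-145865670 (minus strand), Tef at chr15:81811164-81811413 (plus), Cry1 at chr10:85185055-85185304 (minus), Per3 at chr4:151044666-151044915 (minus), Ctsd at chr7:142387828-142388077 (minus) and Ctsl at chr13:64370521-64370770 (minus).
Bhlhe41: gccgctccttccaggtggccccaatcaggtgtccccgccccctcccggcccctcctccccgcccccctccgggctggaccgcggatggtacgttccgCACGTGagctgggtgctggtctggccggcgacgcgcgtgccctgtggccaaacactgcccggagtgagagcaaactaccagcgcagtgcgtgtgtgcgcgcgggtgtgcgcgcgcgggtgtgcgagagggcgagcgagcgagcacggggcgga
Tef: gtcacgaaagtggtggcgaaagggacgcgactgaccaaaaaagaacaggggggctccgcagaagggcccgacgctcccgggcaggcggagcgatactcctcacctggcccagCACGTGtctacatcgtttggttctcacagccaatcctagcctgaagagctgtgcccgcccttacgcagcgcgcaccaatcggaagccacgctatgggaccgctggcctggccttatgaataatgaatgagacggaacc
Cry1: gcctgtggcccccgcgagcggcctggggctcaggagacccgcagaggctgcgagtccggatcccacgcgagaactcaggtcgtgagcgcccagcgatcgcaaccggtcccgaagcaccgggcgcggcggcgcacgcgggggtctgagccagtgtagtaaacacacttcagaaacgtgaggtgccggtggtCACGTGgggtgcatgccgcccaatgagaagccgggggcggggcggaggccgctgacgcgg
Per3: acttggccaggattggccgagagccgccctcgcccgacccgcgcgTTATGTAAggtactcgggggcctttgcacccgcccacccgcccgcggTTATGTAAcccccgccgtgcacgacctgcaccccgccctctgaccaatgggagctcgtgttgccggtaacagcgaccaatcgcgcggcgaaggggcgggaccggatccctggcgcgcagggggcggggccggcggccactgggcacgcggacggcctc
Ctsd: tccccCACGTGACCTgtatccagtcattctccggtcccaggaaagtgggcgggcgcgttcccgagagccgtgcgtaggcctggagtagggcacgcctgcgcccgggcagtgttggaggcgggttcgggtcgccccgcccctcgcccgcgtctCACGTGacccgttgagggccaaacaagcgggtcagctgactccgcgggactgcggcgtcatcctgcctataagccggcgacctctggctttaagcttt
Ctsl: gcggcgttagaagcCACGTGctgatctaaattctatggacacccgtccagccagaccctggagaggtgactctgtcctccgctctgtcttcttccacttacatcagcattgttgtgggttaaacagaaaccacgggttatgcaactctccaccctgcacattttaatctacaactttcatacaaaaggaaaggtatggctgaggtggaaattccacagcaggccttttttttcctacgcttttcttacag
These matches describe letters in a window and not binding. With both strands searched, CACGTG stood in 6.02% of the 32851 mouse windows of the same length, TTATGTAA in 0.819% and AGGTCA in 14.0%. The 9 clock genes that passed the test had 11 windows, of which 4 held CACGTG (Bhlhe41, Cry1 and both windows of Tef), 1 held TTATGTAA (Per3, with 2 copies) and 1 held AGGTCA (Nr1d2). Of the 11 particle macrophage genes that passed, 8 had a window. Of their 9 windows 1 held CACGTG (Ctsd, with 2 copies), 0 held TTATGTAA and 3 held AGGTCA (Ctsd, Mmp12 and Trem2). The 3 lysosomal genes that passed had 4 windows, of which 2 held CACGTG (Ctsl and Ctsa), 0 held TTATGTAA and 1 held AGGTCA (Ctsa).

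Lungs of the L group carried more RNA of macrophage genes linked to lipid or particle loading and had the clock genes at other levels than US lungs, while most other gene groups showed no called member. Of 16903 genes, 87 (0.515%) passed an adjusted p of 0.05 in edgeR's quasi-likelihood test with Benjamini-Hochberg adjustment: 59 were higher in L (0.349%) and 28 were lower in L (0.166%). The median log2 fold change over all genes tested was -0.02. The L and US libraries did not overlap for 82 of the 87, and for 3900 of all genes tested (23.1%). At an unadjusted p of 0.05, 1911 genes (11.3%) passed. In bulk tissue, more cells of a type and more RNA per cell cannot be told apart. Since every L library was the shallower, the 6 libraries were also thinned to the lowest total, a step added after seeing the data: 82 genes then passed, 79 of them among the 87. The total moved by more than 1.5 times when 1 of 4 libraries was left out, to 29 genes without L replicate 1, 151 without L replicate 2, 29 without L replicate 3 and 47 without US replicate 1.

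**Figure D1:**
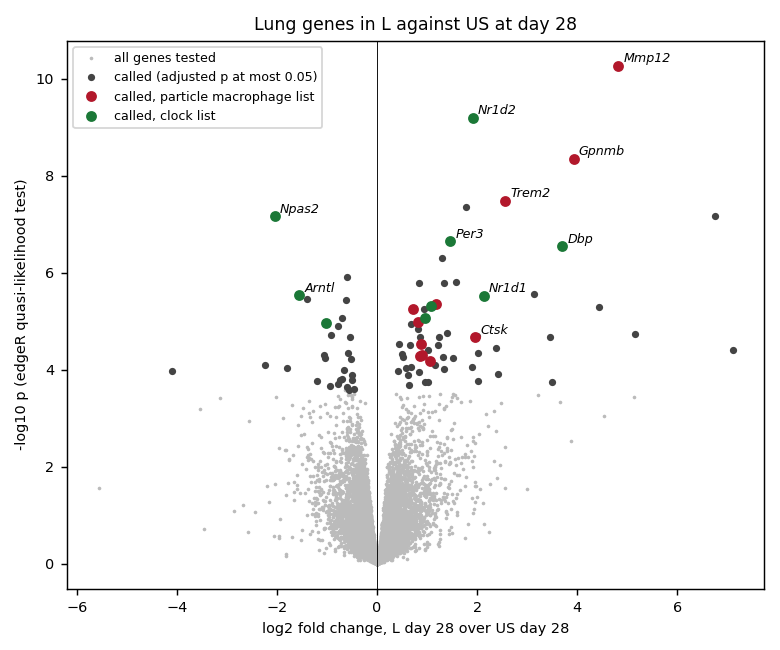
Each point is 1 of 16903 genes, with the log2 fold change of L over US at day 28 on the horizontal axis and -log10 of the edgeR p on the vertical axis. Grey points did not pass, black points passed at an adjusted p of 0.05, red points are called particle macrophage genes and green points called clock genes. Mmp12, Nr1d2, Gpnmb and Trem2 stand at the top right, and Npas2 and Arntl on the left.

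The macrophage genes came first. The list of 20 genes of particle-laden or lipid-laden macrophages was chosen with earlier results of these data known, so its counts are description and no test. Of the 20, 11 rose in L, against 0.349% of all genes tested, 0 fell and 9 were not called. The median log2 fold change was 0.87. For 14 of the 20 every L library lay above every US library, against 13.7% of all genes tested. Mmp12 (ENSMUSG00000049723, chr9:7344381-7369499), the macrophage elastase, had 407, 113.2 and 287 CPM in L and 9.84, 7.46 and 10.5 CPM in US. The groups stood far apart, and L replicate 2 was the lowest of the 3 L libraries. Its log2 fold change was 4.82 ± 0.48 (SE; adjusted p = 8.97e-07, edgeR), or 28.3-fold, the smallest adjusted p of the comparison. Per length, Mmp12 averaged 152.1 ± 96.7 TPM in L and 5.40 ± 0.62 TPM in US (SD, n = 3 each).

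Gpnmb (ENSMUSG00000029816, chr6:49036518-49058182), a membrane glycoprotein of lipid-loaded macrophages, had 774, 227 and 630 CPM in L and 35.4, 44.3 and 24.7 CPM in US. Again L replicate 2 was the lowest of its group and still above all US libraries. The log2 fold change of Gpnmb was 3.93 ± 0.48 (SE; adjusted p = 2.50e-05, edgeR). Trem2 (ENSMUSG00000023992, chr17:48346401-48354147), a receptor that senses lipids, had 51.5, 19.2 and 45.0 CPM in L and 7.26, 6.90 and 4.91 CPM in US. The order of the L libraries was the same as for Gpnmb and Mmp12. The log2 fold change of Trem2 was 2.57 ± 0.35 (SE; adjusted p = 0.000139, edgeR). Tyrobp, the adaptor through which Trem2 signals, had 207, 152 and 224 CPM in L and 111.5, 110.8 and 120.6 CPM in US. The groups did not overlap, and the log2 fold change was 0.72 ± 0.13 (SE; adjusted p = 0.00400, edgeR).

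Proteases and other contents of the lysosome made up much of the rest of the called list. Ctsk, a cysteine protease that cuts collagen and elastin, had 194, 106.4 and 176 CPM in L and 37.6, 48.7 and 33.0 CPM in US. Every L library held more than 2 times the highest US library, and the log2 fold change was 1.96 ± 0.39 (SE; adjusted p = 0.00907, edgeR). The call of Ctsk was lost under 4 of 15 alternative fits, single libraries left out included. The aspartyl protease Ctsd had 2165, 1392 and 2468 CPM in L and 1142, 1178 and 826 CPM in US, with a log2 fold change of 0.90. The cysteine protease Ctsb had 1299, 756 and 1245 CPM in L and 608, 602 and 623 CPM in US, with a log2 fold change of 0.81. For both cathepsins L replicate 2 lay nearest to the US libraries without reaching them. Cd68, a glycoprotein of macrophage lysosomes, rose by a log2 fold change of 1.19, the galectin Lgals3 by 1.05, the CD11c integrin Itgax by 0.88 and the fatty acid carrier Fabp5 by 0.86. None of these 4 overlapped between the groups.

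The 9 members not called ran between log2 fold changes of -0.02 (Nceh1, a cholesterol ester hydrolase) and 1.20 (Spp1, osteopontin). Spp1 had 329, 191 and 416 CPM in L and 120.7, 169 and 106.1 CPM in US, without overlap, at an adjusted p of 0.305 (edgeR). The proton pump subunit Atp6v0d2 had 187, 92.0 and 185 CPM in L and 71.6, 85.0 and 61.9 CPM in US, at an adjusted p of 0.0596 (edgeR). Lpl, Lipa, Apoe, Plin2 and Cd9 overlapped between the groups.

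The score of the list, its mean log2(CPM + 0.5) relative to the 6 libraries, was 0.87, 0.07 and 0.84 in L and -0.57, -0.49 and -0.73 in US. The 20 genes summed to 9082, 5449 and 9100 CPM in L and 4372, 4570 and 3828 CPM in US. By both measures L replicate 2 lay between the other L libraries and the US libraries. The number of called members was 5 without L replicate 1, 4 without L replicate 3, 7 without US replicate 3 and 13 without L replicate 2. On the same scale the score was between -0.44 and -0.37 in S and between -1.02 and -0.75 in D.

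**Figure D2:**
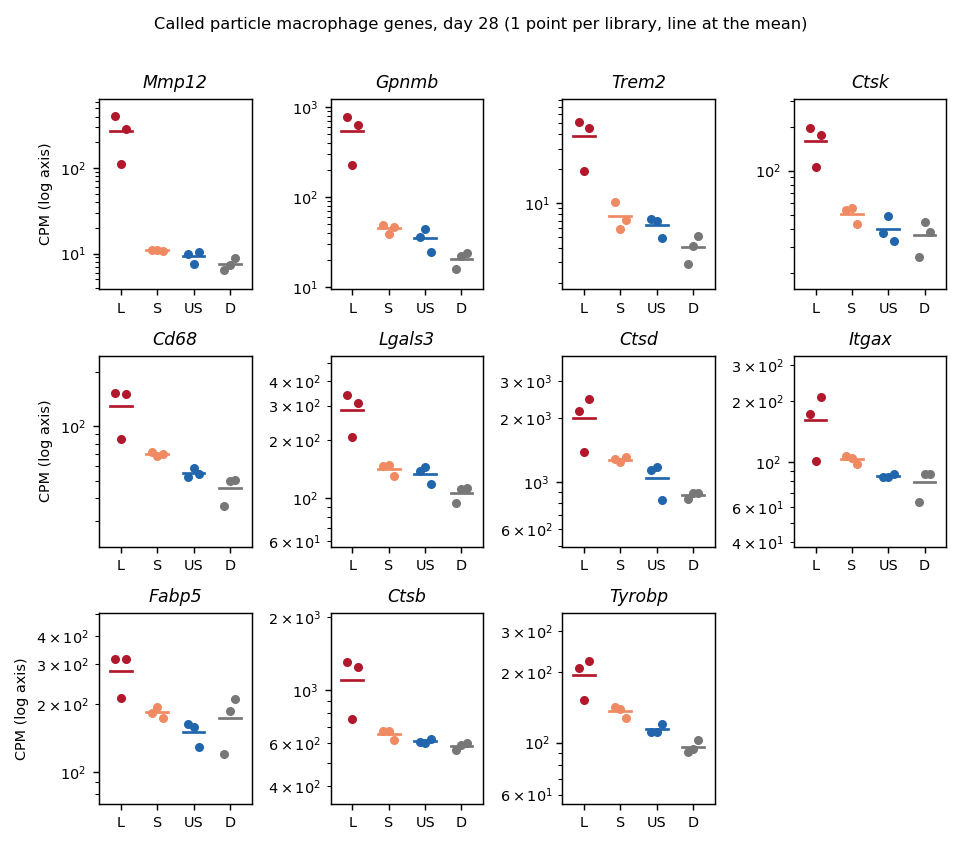
Each panel is 1 of the 11 called particle macrophage genes, with CPM on a log axis and 1 point per day 28 library for large (L), small (S) and ultrasmall (US) sheets and dextrose (D). The line marks the group mean. The 3 L points lie above all US points in every panel, and the lowest L point is replicate 2 each time.

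In further genes outside that list L replicate 2 was again the lowest L library. Npy, neuropeptide Y, was read 54, 25 and 43 times in the L libraries and 1 time over the 3 US libraries. Its ratio per read was 156, with a 95% interval for counting error only of 27.4 to 6194, and its adjusted p was 0.000165 (edgeR). Npy had no read in any S or D library. Mfge8, a secreted bridge between phosphatidylserine on dying cells and phagocytes, had 690, 373 and 617 CPM in L and 259, 217 and 187 CPM in US. The groups did not overlap, and its log2 fold change was 1.3 ± 0.20 (SE; adjusted p = 0.000822, edgeR). Mfge8 was the 1 called gene among 17 bridges and receptors of efferocytosis, the uptake of dying cells, whose median was -0.10.

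Ms4a7, a membrane protein of macrophages, had 27.2, 10.3 and 23.0 CPM in L and 6.40, 6.11 and 8.02 CPM in US, a log2 fold change of 1.52 (adjusted p = 0.0172, edgeR). Stra6l, a receptor for the retinol carrier in the liver and gut of mice, had 11.8, 5.68 and 14.3 CPM in L and 1.86, 2.91 and 1.13 CPM in US, a log2 fold change of 2.38. Pianp had 6.36, 2.64 and 7.01 CPM in L and 0.812, 1.73 and 1.3 CPM in US, and Creg2 had 3.28, 1.61 and 2.66 CPM in L and 0.239, 0.824 and 0.714 CPM in US. In all 4 genes L replicate 2 was the lowest L library, and none overlapped between the groups. Counting fits with 1 library left out, the call was lost under 6 of 15 alternatives for Ms4a7 and 5 of 15 for Stra6l. For Pianp it was lost under 4 of 15 and for Creg2 under 4 of 14. Further called genes known from myeloid cells, chosen here after their values were seen, were Hpgds (prostaglandin D synthase, log2 fold change 1.79), Hk3 (a hexokinase of myeloid cells, 1.16), Cd84 (a receptor of the SLAM family, 0.82) and Slc37a2 (a sugar phosphate transporter of macrophages, 1.33).

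The lysosome as a whole moved less than the particle macrophage list. Of 25 lysosomal enzymes, membrane proteins and proton pump subunits, 3 rose, against 0.349% of all genes tested, 0 fell and 22 were not called. The median log2 fold change was 0.20. For 12 of the 25 every L library lay above every US library, against 13.7% of all genes tested. Ctsl, a cysteine protease, had 658, 368 and 598 CPM in L and 302, 306 and 274 CPM in US, without overlap, at a log2 fold change of 0.84 ± 0.14 (SE; adjusted p = 0.00199, edgeR). Ctsz rose by a log2 fold change of 0.59 and Ctsa by 0.49, both also without overlap. When the fit held the compared groups alone, Ctsl (adjusted p = 0.0685, edgeR), Ctsz and Ctsa were not called. Ctsz and Ctsa were also not called with the replicate number as a block. The membrane proteins Lamp1 and Lamp2 had log2 fold changes of 0.03 and -0.12 and overlapped between the groups. The number of called members was 7 without L replicate 2 and 1 without L replicate 1, without L replicate 3 or without US replicate 3.

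Markers of resident and of recruited macrophages did not, as whole lists, move together with the particle macrophage genes. Of 18 resident alveolar macrophage markers 1 rose and 0 fell, with a median of -0.07. The riser was Fabp4, a fatty acid carrier that is also 1 of 9 tested fat cell markers, with 41.5, 27.4 and 47.8 CPM in L and 16.1, 14.9 and 14.3 CPM in US, a log2 fold change of 1.32 ± 0.28 (SE; adjusted p = 0.0169, edgeR). Of the other fat cell markers tested, none was called. The call of Fabp4 was lost under 5 of 15 alternative fits, single libraries left out included. Of the 18 resident markers, 2 had every L library above every US library, against 13.7% of all genes tested. These were Fabp4 and Atp6v0d2, which is also in the particle macrophage list. Another 4 had every L library below every US library, against 9.38% of all genes tested. Siglecf, a lectin that marks alveolar macrophages, had 27.7, 20.0 and 27.7 CPM in L and 26.4, 28.8 and 25.1 CPM in US, a log2 fold change of -0.14 ± 0.13 (SE). Chil3, a chitinase-like protein of these cells, had 979, 781 and 1244 CPM in L and 1304, 1496 and 1358 CPM in US, at an adjusted p of 0.494 (edgeR). The list summed to 2313, 1929 and 2581 CPM in L and 2544, 2795 and 2524 CPM in US. Of 20 markers of recruited monocytes and interstitial macrophages 1 rose (Ms4a7) and 0 fell, with a median of -0.11. Ccr2, the receptor that guides monocytes into tissue, had 65.5, 70.9 and 69.6 CPM in L and 66.1, 57.7 and 118.3 CPM in US. Adgre1, the F4/80 antigen, had a log2 fold change of 0.01 ± 0.18 (SE).

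The clock genes moved in both directions. Of 18 clock genes, 6 rose in L, 3 fell and 9 were not called, where 0.515% of all genes tested were called. For 16 of the 18 the groups did not overlap, against 23.1% of all genes tested. This list too was chosen with earlier results of these data known. The median log2 fold change was 0.52. The labels give the light cycle of the animal room but no hour of dissection, so the hour entered no fit. For these genes sheet size and hour of dissection cannot be told apart here, and neither was tested as a cause. The number of called clock genes lay between 8 and 10 when 1 of the 6 libraries was left out.

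Among the outputs, Dbp (ENSMUSG00000059824, chr7:45705088-45710155), a transcription factor that binds the D-box, had 60.4, 48.9 and 78.5 CPM in L and 5.44, 3.90 and 4.70 CPM in US. Each L library held over 8 times the highest US library, and the log2 fold change was 3.70 ± 0.56 (SE; adjusted p = 0.000536, edgeR). Tef, a factor of the same family, had 211, 235 and 244 CPM in L and 117.7, 117.7 and 111.7 CPM in US, a log2 fold change of 0.95 ± 0.18 (SE; adjusted p = 0.00564, edgeR). The third member, Hlf, had 24.6, 22.1 and 26.5 CPM in L and 16.5, 16.4 and 11.7 CPM in US, without overlap, at an adjusted p of 0.106 (edgeR).

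Among the repressors, Nr1d2 (ENSMUSG00000021775, chr14:18204054-18239127), which encodes REV-ERB beta, had 170, 127.5 and 168 CPM in L and 37.7, 45.2 and 37.5 CPM in US. The spread within each group was small beside the gap, and the log2 fold change was 1.91 ± 0.21 (SE; adjusted p = 5.29e-06, edgeR). Nr1d1 (REV-ERB alpha) had 213, 225 and 199 CPM in L and 52.7, 58.8 and 29.8 CPM in US, a log2 fold change of 2.13 ± 0.37 (SE; adjusted p = 0.00294, edgeR). Per3, a period gene, had 38.9, 43.0 and 60.0 CPM in L and 16.9, 16.7 and 16.3 CPM in US, a log2 fold change of 1.46. Bhlhe41, which encodes DEC2, had 28.1, 21.6 and 36.8 CPM in L and 12.9, 14.2 and 12.6 CPM in US, a log2 fold change of 1.08. All 4 were higher in each L library. Cry1, a cryptochrome, went the other way, with 13.7, 14.6 and 14.6 CPM in L and 30.4, 26.2 and 27.4 CPM in US, a log2 fold change of -1.01 ± 0.19 (SE; adjusted p = 0.00660, edgeR). Per1 overlapped between the groups at a log2 fold change of 0.32, and Per2 did not overlap at 0.77, both without a call.

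The activators were lower in L. Arntl, which encodes BMAL1, had 19.6, 22.5 and 16.5 CPM in L and 54.7, 59.5 and 53.1 CPM in US, a log2 fold change of -1.55 ± 0.27 (SE; adjusted p = 0.00294, edgeR). Npas2, a partner of BMAL1, had 5.89, 7.40 and 5.62 CPM in L and 25.5, 28.2 and 22.3 CPM in US, a log2 fold change of -2.05 ± 0.29 (SE; adjusted p = 0.000165, edgeR). Neither gene overlapped between the groups. Clock, the other partner, had 95.6, 81.7 and 84.1 CPM in L and 109.5, 129.97 and 123.2 CPM in US and was not called (adjusted p = 0.188, edgeR). Nfil3, a repressor at the D-box, had a log2 fold change of -1.28 and was not called.

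**Figure D3:**
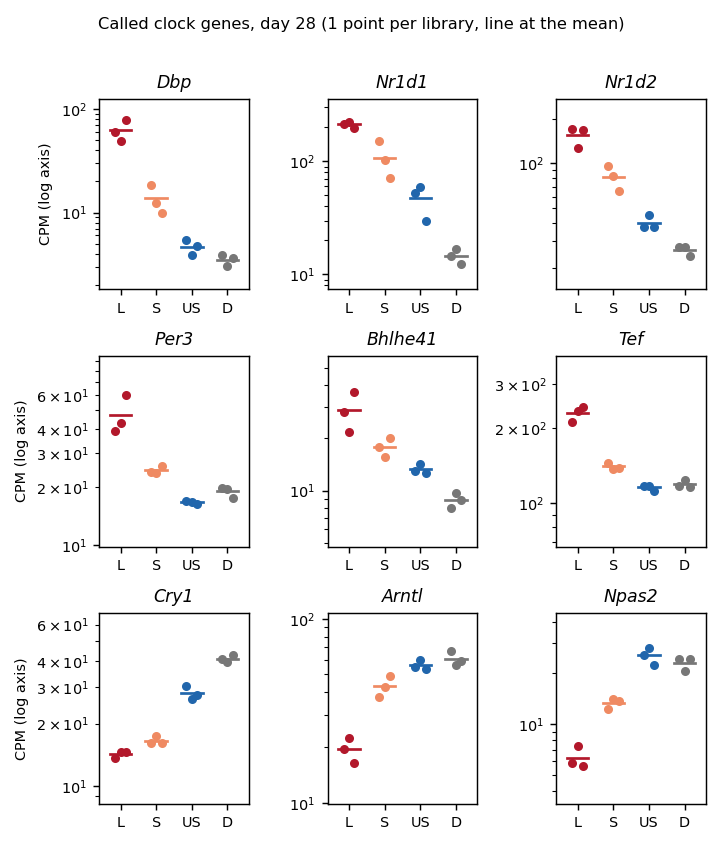
Each panel is 1 of the 9 called clock genes, with CPM on a log axis and 1 point per day 28 library for large (L), small (S) and ultrasmall (US) sheets and dextrose (D). The line marks the group mean. Dbp, Tef, Nr1d1, Nr1d2, Per3 and Bhlhe41 are higher in L than in US, and Cry1, Arntl and Npas2 lower, with no overlap between the L and US points in any panel.

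Besides Arntl, Npas2 and Cry1, few of the 28 genes called lower in L belonged to a list: 1 of 14 heat shock chaperones, 1 of 24 endothelial markers and 0 of 25 matrix genes were called. Npr3 (ENSMUSG00000022206, chr15:11839896-11905674), the receptor that clears natriuretic peptides, had 65.0, 76.0 and 65.3 CPM in L and 188, 203 and 138 CPM in US. The groups stood clearly apart, and the log2 fold change was -1.40 ± 0.25 (SE; adjusted p = 0.00323, edgeR). Hspa5, the chaperone BiP of the endoplasmic reticulum, had 528, 484 and 519 CPM in L and 870, 839 and 788 CPM in US, a log2 fold change of -0.75 ± 0.17 (SE; adjusted p = 0.0362, edgeR). That call was lost under 9 of 15 alternative fits, with an adjusted p of up to 0.304 (limma on log2(TPM + 1)). Besides limma and the replicate block, these were fits with 1 library left out, including each L and each US library. Hspa5 was the 1 called gene of 14 heat shock chaperones, whose median was -0.51. For 8 of the 14 every L library lay below every US library, against 9.38% of all genes tested. The 14 chaperones summed to 3952, 3920 and 3940 CPM in L and 5682, 5600 and 5177 CPM in US. By the list score, which weighs each gene alike, the groups overlapped. It was -0.08, -0.06 and -0.43 in L and 0.44, 0.25 and -0.11 in US.

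Vcam1, an adhesion molecule for leukocytes, had 133.9, 102.3 and 137 CPM in L and 170, 158 and 196 CPM in US, a log2 fold change of -0.53 ± 0.11 (SE; adjusted p = 0.0173, edgeR). It was the 1 called gene of 24 endothelial markers, whose median was -0.19. Dhh, the ligand desert hedgehog, had 1.98, 2.75 and 1.75 CPM in L and 5.25, 3.95 and 4.07 CPM in US, a log2 fold change of -1.07. Htra3, a secreted serine protease, had 15.1, 18.5 and 15.1 CPM in L and 28.7, 31.4 and 21.7 CPM in US, a log2 fold change of -0.79. Pxdc1 fell by 0.70 on the log2 scale, Gatsl2 by 0.71 and 5430416O09Rik by 0.92. The fall of Pxdc1 held for counts alone: per length it averaged 45.0 ± 33.3 TPM in L and 39.8 ± 7.88 TPM in US (SD, n = 3 each), and limma on log2(TPM + 1) gave a log2 fold change of -0.03 (adjusted p = 0.991). The nexin Snx31 fell by 1.79 and the G protein subunit Gng4 by 1.21, both at levels near 1 CPM. The predicted gene Gm15459 fell by 0.94. In CPM, each of the genes from Vcam1 to Gm15459 was lower in all 3 L libraries than in all 3 US libraries. Several of these calls depended on the processing or on which libraries were in the fit. Counting fits with 1 library left out, the call was lost under 7 of 15 alternatives for Vcam1, 8 of 15 for Gatsl2 and 11 of 15 for Gm15459. For Snx31 it was lost under 7 of 14 and for Gng4 under 11 of 14. For Gatsl2 the losses were limma on log2(TPM + 1), the replicate block and otherwise fits with 1 library left out. Against 28 genes called lower in the main fit, 6 genes in all were called lower without L replicate 1 and 8 without L replicate 3.

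A few of the calls in this direction rested on US replicate 3. Cxcl9, a chemokine induced by interferon gamma, had 1.15, 1.15 and 1.69 CPM in L and 1.48, 1.52 and 63.1 CPM in US. The L libraries overlapped the other two US libraries, and the log2 fold change of -4.09 (adjusted p = 0.0261, edgeR) was -0.22 (adjusted p = 0.933, edgeR) without US replicate 3. Wars, a tRNA synthetase that interferon induces, had 115.2, 138 and 124.1 CPM in L and 157, 147 and 450 CPM in US, and Gm4841 had 0.573, 0.860 and 0.785 CPM in L and 1.34, 1.08 and 7.77 CPM in US. Neither Wars nor Gm4841 was called without that library. The 22 interferon-stimulated genes summed to 1034, 1078 and 1092 CPM in L and 940, 872 and 3405 CPM in US, so US replicate 3 stood apart in the whole list. Of the 22, Cxcl9 was called, and 21 were not. T cell and NK cell markers also summed highest in US replicate 3, with 558 CPM, against 306 and 269 CPM in the other US libraries and between 326.6 and 346 CPM in L.

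The lists of B cells and of antibody-producing cells held no called gene. Of 17 tested immunoglobulin constant chains and plasma cell genes, 0 passed in edgeR's test, the median log2 fold change was 0.77, and 11 had every L library above every US library, against 13.7% of all genes tested. The members ranged between log2 fold changes of -0.20 and 2.55. Jchain, which joins antibody units, had 87.7, 28.9 and 62.7 CPM in L and 27.0, 16.9 and 15.2 CPM in US (adjusted p = 0.0595, edgeR). The kappa constant chain Igkc had 330, 203 and 292 CPM in L and 159, 120.4 and 111.7 CPM in US (adjusted p = 0.0956, edgeR). Both were lowest within L in replicate 2. Of 18 B cell and follicle genes 0 passed, the median was 0.50 within a range of -0.35 to 0.83, and 14 had all L libraries above all US libraries, where 13.7% of all genes tested did. Cd79b, part of the B cell receptor, had 81.9, 79.7 and 97.6 CPM in L and 49.9, 42.0 and 49.9 CPM in US (adjusted p = 0.198, edgeR).

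Immunoglobulin variable segments were also called higher in L, and these near-identical copies can share reads, so their single values are uncertain. Ighv1-12 had 155, 49 and 17 reads in L and 1, 6 and 0 reads in US, a ratio of 40.3 with a 95% interval of 19.2 to 101.3 for counting error only. Ighv6-6 had 3.91, 6.94 and 0.785 CPM in L and 0.334, 0.304 and 0.378 CPM in US, and Igkv10-94 had 6.15, 1.66 and 18.8 CPM in L and 0.812, 1.04 and 1.05 CPM in US. A different L library was highest for each of the 3 segments.

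The other lists fixed for this tissue held no called gene. Neutrophil markers had a median of -0.03 over 13 tested genes, neutrophil-attracting chemokines 0.01 over 12, acute-phase genes 0.09 over 13 and chitinase-like and type 2 genes -0.16 over 12. Collagens and other matrix genes had a median of -0.20 over 25 genes, profibrotic genes 0.02 over 21 and cell division genes -0.35 over 24. The cell division genes summed to 378, 441 and 426 CPM in L and 459, 402 and 624 CPM in US, so US replicate 3 was the highest library here too. Alveolar type 2 markers had a median of -0.09 over 17 genes and alveolar type 1 markers 0.01 over 14. The neutrophil calgranulin S100a8 had 47.5, 23.3 and 27.8 CPM in L and 31.8, 28.0 and 35.1 CPM in US, with a log2 fold change of 0.02 ± 0.40 (SE).

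**Figure D4:**
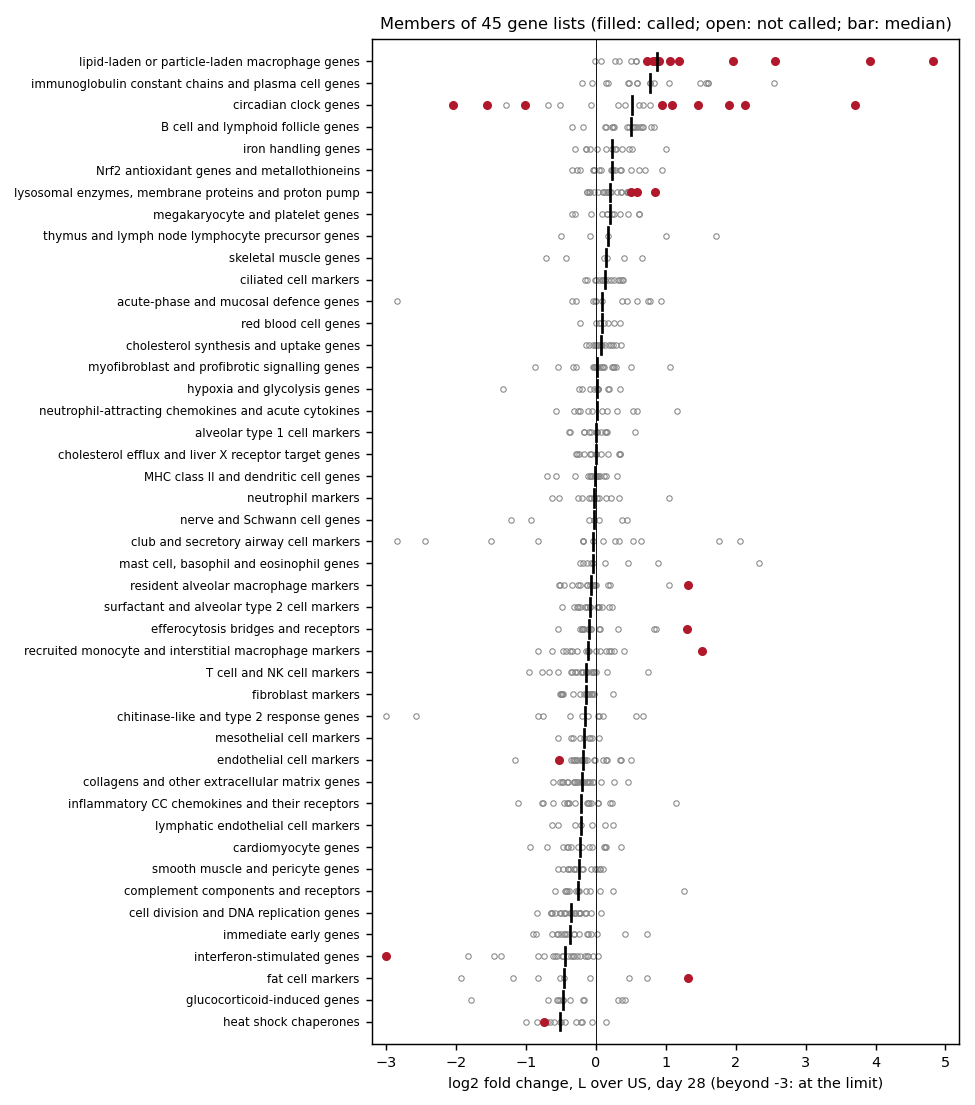
Each row is 1 of 45 gene lists, ordered by the median log2 fold change of L over US at day 28 (black bar). Each circle is a tested member, filled where it was called. Filled circles gather in the particle macrophage and clock rows, and most rows have none.

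Set beside the dextrose animals of the same day, L and US stood at different distances. L against D had 363 of 16903 genes called (2.15%): 212 were higher in L (1.25%) and 151 lower in L (0.893%). US against D had 4 (0.0237%), all lower in US: Dnajb1, Pde4b, Dusp8 and Bcl6b. These comparisons share the L, US or D libraries with the main one, so the values are given side by side only. Mmp12 averaged 269 ± 148 CPM in L, 10.9 ± 0.23 in S, 9.26 ± 1.6 in US and 7.51 ± 1.26 in D (SD, n = 3 each). Gpnmb averaged 544 ± 283 CPM in L, 44.7 ± 5.34 in S, 34.8 ± 9.83 in US and 20.5 ± 4.28 in D. The S and US libraries overlapped for Gpnmb and lay close together without overlap for Mmp12, and for both genes L stood above the other 3 groups. For Npr3 the order was the reverse, with 68.8 ± 6.30 CPM in L, 89.4 ± 9.19 in S, 176 ± 34.0 in US and 218 ± 55.3 in D.

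The clock genes differed in how the 4 groups were ordered. Nr1d2 averaged 155 ± 24.0 CPM in L, 81.4 ± 15.8 in S, 40.2 ± 4.40 in US and 26.4 ± 2.18 in D, with no overlap between neighbours in this order. Nr1d1 averaged 212 ± 12.7 CPM in L, 108.1 ± 39.9 in S, 47.1 ± 15.3 in US and 14.6 ± 2.31 in D, also with no overlap between neighbours. Arntl averaged 19.5 ± 3.02 CPM in L, 43.0 ± 5.54 in S, 55.8 ± 3.36 in US and 60.6 ± 5.88 in D, where US and D overlapped. Dbp stood far higher in L than elsewhere, with 62.6 ± 14.95 CPM in L, 13.7 ± 4.42 in S, 4.68 ± 0.77 in US and 3.50 ± 0.44 in D. Per3 averaged 47.3 ± 11.2 CPM in L, 24.4 ± 1.14 in S, 16.6 ± 0.31 in US and 18.9 ± 1.22 in D, so that every US library lay below every D library. Npas2 averaged 6.30 ± 0.96 CPM in L, 13.3 ± 0.89 in S, 25.3 ± 2.99 in US and 22.9 ± 2.20 in D, with US and D overlapping. S against US had 0 genes called by edgeR, with 920 (5.44%) at an unadjusted p of 0.05 and 7 called by DESeq2, and there Nr1d2 had a log2 fold change of 1.00 ± 0.21 (SE; adjusted p = 0.254, edgeR).

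The difference between L and US was set against that of earlier days. Between day 28 and day 1, 4 genes (0.0237%) had a different L against US contrast: Gpnmb, Mmp12, Trem2 and Pklr. At an unadjusted p of 0.05, 1150 genes (6.8%) passed for that difference. At day 1, Gpnmb had 48.5, 58.3 and 24.8 CPM in L and 80.3, 38.7 and 65.2 CPM in US, with the groups overlapping. At day 7 it had 218, 78.6 and 143 CPM in L and 31.9, 29.2 and 66.7 CPM in US, with no overlap. The contrast of Gpnmb was larger at day 28 than at day 1 by 4.45 ± 0.64 on the log2 scale (SE; adjusted p = 0.00171, edgeR). Mmp12 had 14.3, 21.9 and 5.79 CPM in L and 4.60, 7.80 and 11.8 CPM in US at day 1, and 211, 54.8 and 121.8 CPM in L and 5.08, 5.49 and 8.21 CPM in US at day 7. Its groups overlapped at day 1 and stood apart at day 7. The contrast of Mmp12 was larger at day 28 than at day 1 by 4.04 ± 0.64 (SE; adjusted p = 0.00470, edgeR).

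Trem2 had 4.07, 5.68 and 5.59 CPM in L and 6.40, 5.62 and 4.23 CPM in US at day 1, and its contrast was larger at day 28 by 2.68 ± 0.49 (SE; adjusted p = 0.0418, edgeR). That call was lost with most single libraries left out and when the fit held the compared groups alone (adjusted p = 0.202, edgeR). The groups-only fit also ended the calls of Mmp12 (adjusted p = 0.202, edgeR) and Gpnmb (adjusted p = 0.0842, edgeR). Between day 28 and day 7 these macrophage genes did not pass: the difference was 0.45 for Mmp12, 2.14 for Gpnmb and 0.83 for Trem2.

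Nr1d2 was the 1 gene (0.00592%) whose L against US contrast differed between day 28 and day 7. It had 185, 197 and 217 CPM in L and 238, 188 and 273 CPM in US at day 7, with the groups overlapping, and 173, 144 and 218 CPM in L and 109.7, 105.05 and 115.2 CPM in US at day 1. Its US libraries at day 28 were the lowest of the 3 days. The contrast of Nr1d2 was larger at day 28 than at day 7 by 2.13 ± 0.29 on the log2 scale (SE; adjusted p = 0.000772, edgeR). At an unadjusted p of 0.05, 1047 genes (6.19%) passed for the difference between these days.

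**Figure D5:**
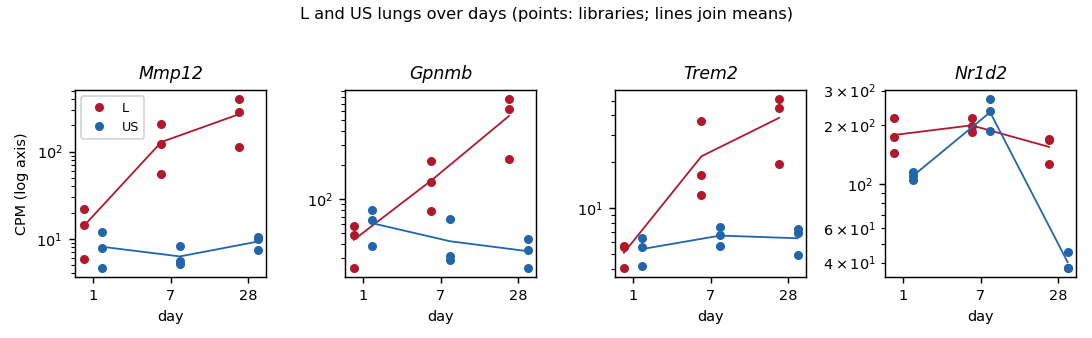
CPM on a log axis in L and US lungs at days 1, 7 and 28 for Mmp12, Gpnmb, Trem2 and Nr1d2, with 1 point per library and lines joining the group means. For the macrophage genes L stands above US at days 7 and 28 and overlaps it at day 1. For Nr1d2 the US points lie far below the L points at day 28.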

How the data were processed

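RNA of 36 lung libraries in 12 groups of 3 was sequenced from poly(A)-selected stranded libraries, per the labels' protocols, which also discard RNA of an integrity number below 8. The deposited table holds raw counts per gene, and StringTie tables deposited per library hold TPM and gene positions. The submitters' processing notes name bcl2fastq 2.19.1.403, CASAVA, STAR 2.5.1b, featureCounts 1.5.1, StringTie 1.3.3 and the builds GRCm38 and GRCh37, without roles. Gene positions here are those of the deposited tables, whose scaffolds are those of GRCm38. The strand setting of the counting is not given in the sources used here. A gene and an overlapping antisense gene therefore cannot be told apart. Animals given carbon nanotubes and animals of day 90, which the protocols mention, are not analysed here.

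Counts were fitted in edgeR 4.0.16 (R 4.3.3; quasi-likelihood F test, two-sided, TMM scaling, filterByExpr, Benjamini-Hochberg, threshold 0.05) with 1 mean per group over all 36 libraries. SE is the log2 fold change over the square root of F. CPM is the count over the library's total. The procedure was tested on simulated counts. Alternatives were DESeq2 1.42.0, limma 3.58.1 on log2(TPM + 1), other scalings and filters, a replicate block, and single libraries left out. The L and US libraries of day 28 held between 16554469 and 23808264 counted reads, and intervals for low counts cover counting error only.

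Genes named are the 15 largest and 15 smallest log2 fold changes among called genes with a mean of at least 1 CPM and no overlap between groups, up to 3 called members of each list, and called interaction genes of at least 1 CPM. Other genes named were chosen after their values were seen, or as list members. Members and the 45 lists were chosen with earlier results of these data known. Lists are described by counts and medians only.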

Additional observations from a re-analysis of the deposited data

Results flagged for a closer look

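Nr1d2, Gpnmb, Mmp12, Trem2 and Pklr had an L against US difference at day 28 that was not the same at an earlier day, by an interaction term in edgeR's quasi-likelihood fit. Between day 28 and day 7 the contrast of Nr1d2 differed by 2.13 on the log2 scale (adjusted p = 0.000772). Between day 28 and day 1 the contrast differed by 4.45 for Gpnmb (adjusted p = 0.00171), 4.04 for Mmp12 (adjusted p = 0.00470), 2.68 for Trem2 (adjusted p = 0.0418) and 3.72 for Pklr (adjusted p = 0.0480), with edgeR. Pklr, a pyruvate kinase of liver and red cells, averaged 0.511 CPM over these libraries, under the level set for naming genes, and was chosen after its values were seen. It had 13, 10 and 13 reads in L and 2, 3 and 3 reads in US at day 28, while at day 1 it had 0.374, 0.355 and 0.359 CPM in L and 0.966, 1.04 and 0.654 CPM in US. The causes were not tested.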

How the results depend on the processing

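None of the 39 genes chosen by the naming rule reversed its direction in L against US under the alternatives that tested it. The other genes named in the text were not followed singly. Mmp12, Gpnmb, Trem2, Mfge8, Npy, Dbp, Nr1d1, Nr1d2, Per3, Arntl, Npas2 and Npr3 were called under every alternative that tested them. Each of the remaining genes of the 39 lost its call under at least 1 alternative. The fit on the compared groups alone kept 20 of the 39 calls and lost 19. Of L against US, 87 genes were called (59 higher, 28 lower), and 84 with DESeq2's size factors in edgeR, 85 with a mean of at least 1 CPM and 90 without the deepest library. DESeq2 called 187 (60 of them lower), limma on TPM 42 (32 and 10), and the fit on the compared groups alone had 65 higher and 52 lower. With single libraries left out the count ran between 29 and 151 (21 to 130 higher, 6 to 22 lower). The day 28 to day 7 interaction had 1 call, 7 with no filter, 9 with DESeq2, 7 in the groups-only fit and 1 to 4 with a library left out. The day 28 to day 1 interaction had 4, 13, 40, 0 and 2 to 43 in the same order. Of the genes tested, L against D called 2.15%, 1.16% with a replicate block, 5.14% in the groups-only fit, 1.03% with limma and 0.624% to 2.08% with a library left out. US against D had 4, 11 with no filter, 29 with DESeq2, 8 in the groups-only fit, 2 with limma and 1 to 10 with a library left out. S against US had 0, 7 with DESeq2 and 0 to 3 with a library left out. A fit with the replicate number as a block called 63 genes of L against US (48 higher, 15 lower). The main fit did not pair samples by number. Same-numbered L and US libraries correlated at -0.12, -0.04 and 0.14 in their deviations, and 1 of 3 correlated best with its own number. So few correlations, tied to each other within groups of 3, cannot exclude a pairing. With 3 libraries a group and 16554469 to 23808264 counted reads, genes near 1 CPM rest on few reads. The causes of these movements were not tested.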
